A study of Homo sapiens with 2 samples.

Results

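The inositol polyphosphate phosphatases described here are 9 human genes: INPP5A, INPP5B, INPP5D, INPP5E, INPP5K, INPPL1, INPP1, INPP4A and INPP4B. Their probes were found by gene symbol in the platform annotation, after old symbols had been updated to current ones. Of the 9 genes, 7 had a probe, 1 probe each, among the 12445 genes named in that annotation, and INPP5B and INPP5K are not named in it. The set was chosen because INPP5A is low after miR-210 transfection in these data, so the values below describe that contrast and do not test it.

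RNA came from KYSE-170, an established human oesophageal squamous carcinoma cell line grown in medium with 5% fetal bovine serum. One culture had been transfected with an oligoribonucleotide for miR-210 and the other with an oligoribonucleotide called ncRNA, both with the lipid reagent Hiperfect. Each arm was measured once, on 1 single-colour (Cy5) oligonucleotide array, so no value has a replicate and no p-value can be given. The sources used here do not give the time after transfection, the dose or the sequence of either oligoribonucleotide.

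Inositol polyphosphate phosphatases remove phosphate groups from the inositol ring, either of soluble inositol phosphates or of the phosphoinositide lipids of membranes. When phospholipase C cleaves its lipid substrate, it releases soluble inositol trisphosphate, which opens calcium channels of the endoplasmic reticulum, and 5-phosphatases such as INPP5A end that signal. Other members act on the lipid products of phosphoinositide 3-kinases, which recruit the kinase AKT to the membrane. miR-210 is a microRNA induced by hypoxia, and a microRNA recognises messenger RNAs mainly through its seed, the bases 2 to 8 from its 5′ end.

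The sequence of the mature microRNA is shown because it is what the transfection was meant to raise. RefSeq places hsa-miR-210-3p on the minus strand at chr11:568112-568133 of GRCh38.p14, within the MIR210 hairpin at chr11:568089-568198. In the first line the capitals mark the seed, and in the second they mark the mature strand within its hairpin.

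hsa-miR-210-3p: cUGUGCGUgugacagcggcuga

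MIR210 hairpin: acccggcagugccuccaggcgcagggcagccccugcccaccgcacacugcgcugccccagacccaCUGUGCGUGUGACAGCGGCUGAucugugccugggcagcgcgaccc

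An RNA that pairs with the whole seed carries acgcaca. Among 2545 mature human microRNA entries of the RefSeq table, 1 has this seed, miR-210-3p itself, so no other listed human microRNA shares it.

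Over 24267 probes the median intensity was 39 with ncRNA and 36 with miR-210. Each difference below is a log2 ratio, the miR-210 value over the ncRNA value, taken after quantile normalization, which gives both arrays the same distribution of values. Intensities written as a pair, such as 59 and 58, are always the ncRNA reading first and the miR-210 reading second. A gene was kept when its mean level reached the median of all probes, a normalized intensity of 37.5, and 6681 genes were kept. The only error that can be given comes from genes with 2 or more kept probes: over 251 such genes, the log2 ratio of a single probe scattered around its gene with a SD of 0.43. That SD leaves out differences between cultures and between arrays, of which there was 1 per arm. Of 13 squamous markers listed, 12 had values above 0 on both arrays and 11 passed the level filter, among them the basal keratin KRT5, at 290 and 496. Of all 12405 named genes with such values, 6681 passed. The measured squamous marker that did not pass was TP63, the master regulator of squamous epithelium, at 57 and 22. Of the 11 that passed, 4 were below 0 and 7 above, from SOX2 at -0.96 (90 and 43) to ITGA6 at 1.89 (125 and 428). At least 2-fold higher were 2 of the 11, beside 3.02% of all kept genes, and none was 2-fold lower. Of 10 reported targets of miR-210, all kept, 7 were below 0 and 3 above, 2 were at least 2-fold lower, and the median log2 ratio was -0.31. Over all kept genes, 3.17% were at least 2-fold lower and the median was 0.01. The lowest of the 10 targets was FGFRL1 at -3.64 (277 and 21), its 21 lying under the array's median. GPD1L stood at -1.21 and ISCU at -0.43, and the highest, CASP8AP2, at 0.42.

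INPP5A, the type I 5-phosphatase that acts on soluble inositol trisphosphate and tetrakisphosphate, was lower on the miR-210 array. Its probe read 146 with ncRNA and 32 with miR-210, a 4.56-fold difference in the deposited values. After quantile normalization the intensities were 140 and 33.1, 4.23-fold lower after miR-210 transfection (log2 ratio -2.08). On the ncRNA array the probe was brighter than 73.5% of all probes, while on the miR-210 array it was brighter than 46.2% and lay under the array's median. It thus passed the level filter through its ncRNA reading. The lower reading therefore lies in the dim part of the range, where a ratio depends on how low values are treated. With an offset of 10 added to both intensities the gene was 3.48-fold lower, and with values under the median raised to it, 3.74-fold lower.

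The log2 ratio of INPP5A ranked 12 from the lowest among the 6681 kept genes, with 11 genes lower. Of all kept genes 3.17% were at least 2-fold lower and 3.02% at least 2-fold higher on the miR-210 array. Among the 1562 kept genes whose mean log2 level lay within 0.5 of that of INPP5A, 3.71% were at least 2-fold lower and 3.39% at least 2-fold higher, and 2 had a lower ratio than INPP5A. These shares give the background only, because INPP5A was chosen by its ratio. INPP5A has a single probe, so no second probe checks its value. Where that check could be made, it was often not met: of 12 genes with 2 kept probes whose brighter probe was at least 2-fold lower, the other probe was below 0 in 9 and at least 2-fold lower in 1, with a median log2 ratio of -0.31.

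**Figure D1:**
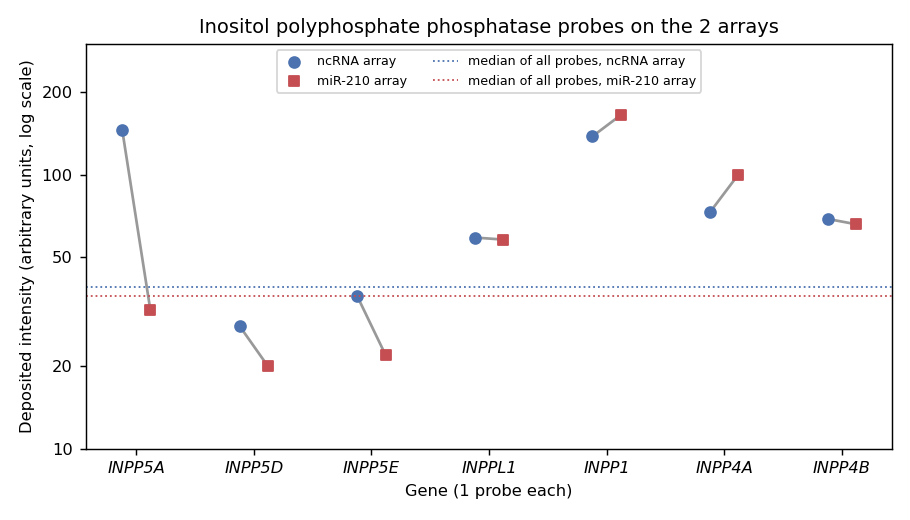
Deposited intensity (log axis, arbitrary units) of the 7 phosphatase probes on the ncRNA array (blue circles) and the miR-210 array (red squares), 1 array each, with dotted lines at the median of all probes on each array (39 and 36). INPP5A goes from 146, above the median line, to 32, under it, while INPPL1 and INPP4B read almost alike on both arrays; heights of different probes are not comparable.

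The other 5-phosphatases with a probe act on membrane lipids, and none was 2-fold apart. INPPL1 encodes SHIP2, a widely expressed phosphatase of the lipid product of phosphoinositide 3-kinases. Its intensities were 59 and 58, a log2 ratio of 0.08, which is well inside the spread between probes. INPP5D encodes SHIP1, the related enzyme of blood cells. It read 28 and 20, under the median of both arrays, with a log2 ratio of -0.42. Of 10 leukocyte markers with values above 0 on both arrays, 1 passed the level filter, CD79A, with intensities of 133 and 126. Of 7 fibroblast markers with such values 2 passed, PDGFRB (87 and 78) and DCN (183 and 181). Of 5 endothelial markers 2 passed, KDR (66 and 36) and VWF (126 and 103). Passing the level filter thus does not by itself show that a gene is expressed. INPP5E, a lipid 5-phosphatase of the primary cilium, read 36 and 22, also under the median of both arrays. Its log2 ratio of -0.63 was within the spread between probes computed with no level filter, a SD of 0.72, and became 0.00 when values under the median were raised to it.

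INPP5D and INPP5E were thus the 2 genes of the set that did not pass the level filter, and both were lower on the miR-210 array in the deposited values. Ratios of such dim genes scatter widely. Of 5724 named genes under the filter, 10.9% were at least 2-fold lower and 11.8% at least 2-fold higher.

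The 4-phosphatases remove the phosphate at position 4 of a phosphoinositide bisphosphate that also recruits AKT. INPP4A read 73 and 100, and its log2 ratio of 0.56, or 1.47-fold higher, was the highest of the set. INPP4B, known as a tumour suppressor in several epithelial cancers, read 69 and 66, with a log2 ratio of 0.04. The ratio of INPP4A exceeded the spread between probes and that of INPP4B did not, although the difference between the genes was not tested. INPP4A ranked 5833 from the lowest among the 6681 kept genes, whose log2 ratios had a SD of 0.54, so many genes were higher.

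INPP1, a lithium-sensitive enzyme that removes the phosphate at position 1 of soluble inositol phosphates downstream of INPP5A, was nearer to the other members than to INPP5A. Its probe read 138 and 165, a log2 ratio of 0.36, or 1.28-fold higher with miR-210, which is within the spread between probes. INPP5A and INPP1 thus lay on opposite sides of 0 on the same pair of arrays.

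Of the 5 kept members, 1 was below 0 and 4 above it, and the median log2 ratio was 0.08, against 0.01 over all kept genes. At least 2-fold lower was 1 of 5, INPP5A, by which the set was chosen, and at least 2-fold higher was none, beside 3.17% and 3.02% of all kept genes. The other 4 kept members spanned 0.52 on the log2 scale, from INPP4B to INPP4A, and had a median of 0.22. INPP5A differed from the lowest of them, INPP4B, by -2.12, a gap that follows in part from its choice. Without normalization between arrays the median of all kept genes moved from 0.01 to -0.12, and INPPL1 and INPP4B turned to -0.02 and -0.06. Relative to that median both remained above it, by 0.09 and 0.05.

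**Figure D2:**
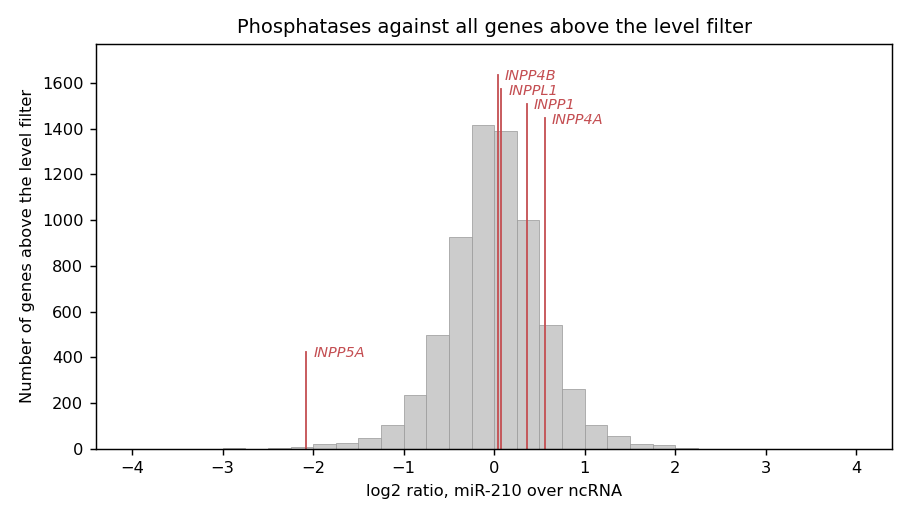
Number of kept genes by log2 ratio of miR-210 over ncRNA (grey bars, 6681 genes), with the 5 kept phosphatases as red lines whose heights carry no value. INPP5A, at -2.08, lies in the far left tail, and the other 4 lie between 0.04 and 0.56, within the main body of the distribution.

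**Figure D3:**
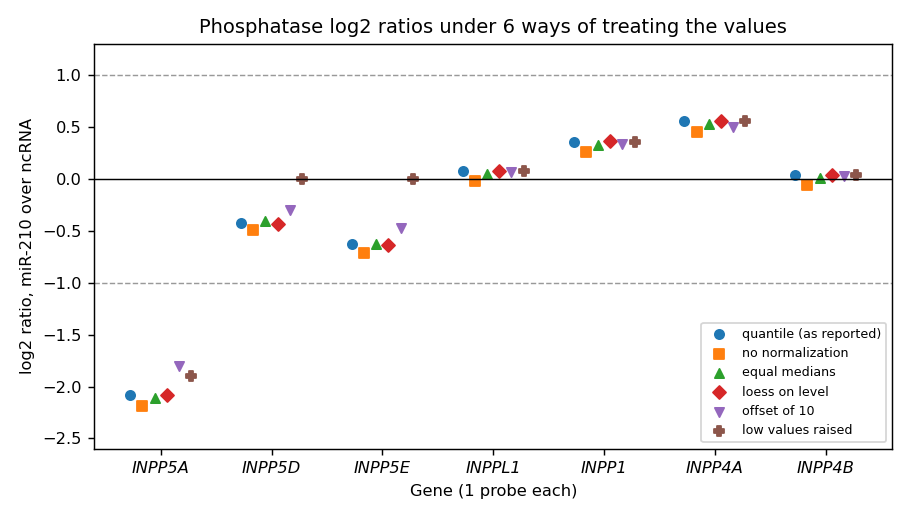
Log2 ratio of miR-210 over ncRNA of each of the 7 phosphatase probes under quantile normalization and 5 alternatives, with dashed lines at a 2-fold difference. INPP5A lies between -2.19 and -1.80 in all 6, INPP5D and INPP5E move to 0.00 when low values are raised to the median, and the other 4 genes lie between -0.06 and 0.56.

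The kept genes most like INPP5A were sought by their log2 ratio over these 2 arrays, among the 2690 other genes whose ncRNA intensity lay within 2-fold of its own. The nearest 3 were AKAP7, an anchoring protein of protein kinase A, with intensities of 100 and 21 and a log2 ratio of -2.17, CARMIL1, a regulator of actin capping protein, with 101 and 21 and a log2 ratio of -2.18, and NOD1, an intracellular receptor of bacterial peptidoglycan, with 83 and 20 and a log2 ratio of -1.97. On the miR-210 array all 3 lay under the median of 36, as INPP5A did, so their ratios also depend on how low values are treated. With 2 arrays, such likeness is a match of 1 ratio.

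Beside the 9 genes, other enzymes of the same pathways were taken from lists of known function. Of the further 5-phosphatases, SYNJ2, a synaptojanin, stood at -0.14 (208 and 175) and OCRL, the gene of Lowe syndrome, at 0.46 (39 and 50). Both differed by less than 2-fold, and the other 2 on that list, SYNJ1 and INPP5J, did not pass the level filter.

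Among the kept genes of the other phosphoinositide phosphatases, 1 had a ratio close to that of INPP5A. MTMR9, a catalytically inactive myotubularin that binds and activates active family members, read 132 and 33 and was 3.74-fold lower with miR-210 (log2 ratio -1.90). Its 33 also lay under the array's median. TPTE2, which did not pass the level filter, read 45 and 12, a log2 ratio of -1.87. It was the lowest of this list's genes under the filter, and the highest of those, MTMR12, stood at 0.48 (17 and 23). Also under the filter and at least 2-fold lower were MTMR1 (50 and 23) and MTMR3 (23 and 11), at -1.04 each. Of all named genes under the filter, 10.9% were at least 2-fold lower and 11.8% at least 2-fold higher. The highest kept gene of the list was MTMR2, an active myotubularin, at 0.61 (669 and 924). Of 7 kept genes, 4 were below 0 and 3 above, with a median of -0.38. MTMR9 was the only 1 of the 7 at least 2-fold apart, where the background is 3.17% lower and 3.02% higher.

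On the list of phospholipase C and inositol trisphosphate receptor genes, those that passed the level filter stayed near 0. Of 12 with values above 0 on both arrays, 4 were kept. Among these 4, 2 were below 0 and 2 above, none was 2-fold apart, and the median was -0.12. The lowest was the phospholipase PLCB1 at -0.37 (60 and 43), and the highest was ITPR3, the only kept receptor, at 0.25 (143 and 157).

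Other enzymes that act on soluble inositol phosphates, as INPP5A and INPP1 do, mostly read higher with miR-210. They catalyse various steps and include kinases as well as phosphatases. Of 10 kept genes, 9 were above 0 and 1 below, with a median of 0.67 against 0.01 over all kept genes. Among those above 0, IPMK (0.01), ITPKC (0.16) and NUDT4 (0.40) lay within the spread between probes. NUDT11, at 0.68, read 32 with ncRNA, under the median of that array. IMPA1, the inositol monophosphatase that yields free inositol, read 258 and 556 and was 2.3-fold higher. IPPK, the kinase that makes inositol hexakisphosphate, read 54 and 105 and was 2.1-fold higher. The gene below 0 was IMPA2, a second inositol monophosphatase, at -0.32 (393 and 288). The share at least 2-fold higher was 2 of 10, where the background is 3.02%, and no test of the list was made.

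Phosphoinositide kinases and the AKT pathway showed no common direction. The kinase list also holds regulatory subunits and a lipid synthase. Of its 15 kept genes, 10 were above 0 and 5 below, with a median of 0.12. The lowest was PIK3CA, a catalytic subunit of phosphoinositide 3-kinase, at -0.80 (181 and 96). The highest was PIP4K2A, a lipid kinase that makes phosphatidylinositol bisphosphate, at 1.04 (29 and 56), the only 1 of the 15 at least 2-fold apart, where the background is 3.17% lower and 3.02% higher. Its reading of 29 lay under the median of the ncRNA array. Of 16 listed genes of the AKT pathway, 10 had values above 0 on both arrays and 8 were kept. AKT1 (33 and 38) and AKT2 (20 and 29) themselves did not pass the level filter. Of the 8 kept genes, 5 were above 0 and 3 below, with a median of 0.09 and none 2-fold apart. PHLPP1, a phosphatase that inactivates AKT, was lowest at -0.92 (272 and 133), and PDPK1, the kinase that activates AKT at the membrane, was highest at 0.25 (186 and 205).

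**Figure D4:**
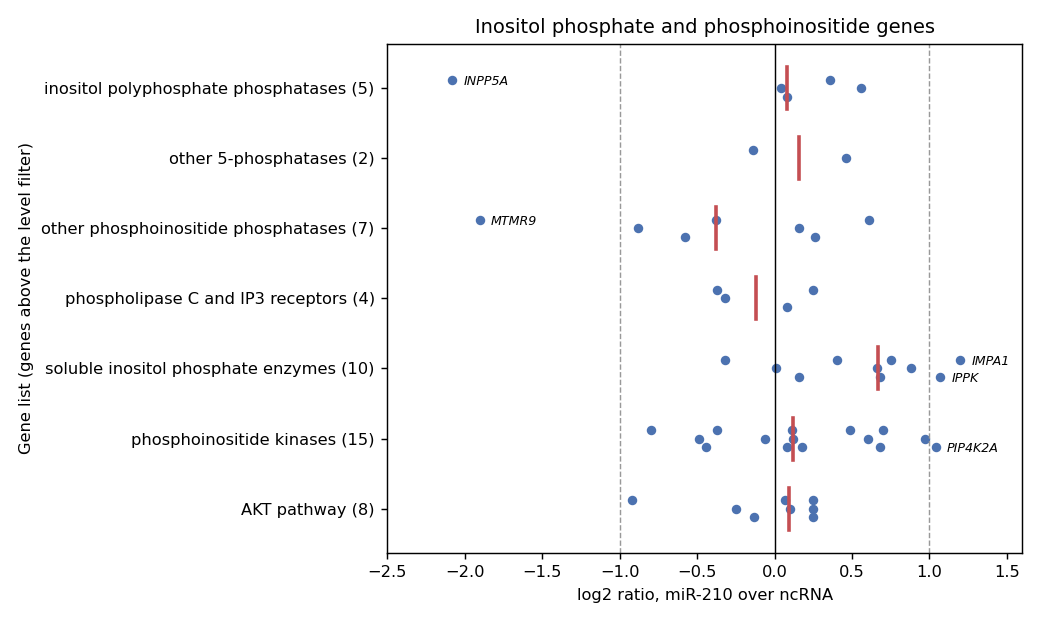
Log2 ratio of miR-210 over ncRNA of each kept gene (blue points, offset vertically for clarity) in 7 lists of inositol phosphate and phosphoinositide genes, with the number of kept genes in brackets, red bars at each list's median and dashed lines at a 2-fold difference. INPP5A and MTMR9 are the lowest points, at -2.08 and -1.90, and the soluble inositol phosphate enzymes have the highest median, 0.67.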

How the data were processed

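The deposited table holds 1 intensity per probe for each of the 2 arrays, whole numbers on a linear scale from -8 to 65496. Since some lie below 0, background must have been removed beforehand. The sources used here do not name the scanner, the background method or a normalization. Intensities above 0 on both arrays (24177 probes, leaving out 90) were taken to log2 and quantile normalized, tied values taking the mean of their targets. Of 12474 symbols, 2285 were updated through RefSeq's genes of GRCh38.p14, and 113 matched no current symbol. No coordinates of the probes are given, because no build is named for them. Where several probes of a gene were kept, the brightest stood for it. With 1 array per group there was no test. Named were all members, in each pathway list the kept genes at least 2-fold apart and the lowest and highest kept gene, and the 3 genes nearest to INPP5A. Listed genes under the level filter were not all named, also where they were at least 2-fold apart. GPD1L and ISCU were named as reported miR-210 targets. The members, lists and rules were chosen with earlier results of these data known. CD79A, KRT5, TP63, SOX2, ITGA6, PDGFRB, DCN, KDR and VWF were named after their values were seen. So were CASP8AP2, FGFRL1, SYNJ1, INPP5J, TPTE2, MTMR1, MTMR3, MTMR12, IPMK, ITPKC, NUDT4, NUDT11, AKT1 and AKT2. The alternatives were no normalization, equal medians, loess on level (span 0.3), the offset, raised low values, other level filters and the mean over probes. Quantile normalization, no normalization, equal medians and loess were run on simulated data, with changes placed on brighter probes only. The offset and the raised low values were not simulated. Python 3.11.15, numpy 2.4.6, pandas 2.3.3 and statsmodels 0.14.6 were used.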

Additional observations from a re-analysis of the deposited data

How the results depend on the processing

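The log2 ratio of INPP5A lay between -2.19 and -1.80 under the 5 alternative treatments of the values, and the gene was at least 2-fold lower in each. The level filter at the 75th percentile kept none of the set, so it gives no value for INPP5A or the members' median. That median ranged from -0.02 to 0.08 elsewhere. Under no alternative run did a member become at least 2-fold higher. Counts over all genes depended on the filter: 834 were at least 2-fold lower and 878 higher with no level filter, and 98 and 95 at the 75th percentile, in place of 212 and 202. The genes tested were 12405, 3467 and 6681, and those under the filter were past 2-fold more often, 10.9% lower and 11.8% higher. The spread between probes was 0.72 with no level filter. Without normalization between arrays the counts were 318 lower and 140 higher, and 30.6% of the genes past 2-fold were higher in place of 48.8%. The median of the soluble inositol phosphate enzymes ranged from 0.53 to 0.68. The median of the other phosphoinositide phosphatases was 0.16 at the 75th percentile; fewer genes were tested there. INPP5E and INPP5D, dim on both arrays, stood at 0.00 with low values raised to the median.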
